A study of Homo sapiens with 12 samples.

Results

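The genes described here are 10 members of the BCL2 family, which decides whether the mitochondrial route of apoptosis is opened: BCL2, BCL2L1, MCL1, BCL2A1, BAX, BAK1, BCL2L11, BBC3, PMAIP1 and BID. They were taken by gene symbol from a table of 17589 genes, and the 36 transcripts of MCL1, BCL2L1 and BCL2L11 were taken from a table of 90572 transcripts. RNA-seq had been performed on YT cells, a human NK cell line, without stimulus, and each of the 4 groups had 3 libraries. All cells had been transduced with a lentivirus. CTRL carried eGFP, hnCD16 carried a high-affinity CD16a that resists cleavage, FR1 carried hnCD16 fused to 2B4, DAP10 and CD3ζ (hnCD16-2B4-DAP10-CD3ζ), and FR2 carried the same receptor without 2B4 (hnCD16-DAP10-CD3ζ). The libraries held 17714566 to 18729019 counts. The study describes its in vitro data in general as coming from independent experiments, but no label says that the 3 libraries of a group came from separate cultures, so the p-values measure the spread between these libraries, which may be technical.

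Proteins of the BCL2 family control the permeability of the outer mitochondrial membrane. The guardians (BCL2, BCL-XL from BCL2L1, MCL-1 and A1 from BCL2A1) hold the effectors BAX and BAK1 in check, and freed effectors form pores that release cytochrome c and lead to caspase activation. BH3-only proteins such as BIM (BCL2L11), PUMA (BBC3), NOXA (PMAIP1) and BID neutralise guardians or engage effectors, and each prefers some partners over others. NK cells are known to depend on MCL-1 for survival, and granzyme B, which NK cells deliver to their targets, cleaves BID.

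Marker genes separated the libraries before any member was considered. GZMB, the gene of granzyme B, had 10 to 17 counts per CTRL or hnCD16 library and 44542 to 49153 per FR1 or FR2 library, and CD3D, a chain of the T cell receptor complex, had 7757 to 9903 counts in CTRL and hnCD16 and 0 to 3 in FR1 and FR2. The summed level of 11 NK cell markers was 28.2 to 31.8 CPM (counts scaled by TMM library sizes) in CTRL, 28.5 to 31.2 CPM in hnCD16, 4052 to 4271 CPM in FR1 and 3917 to 4023 CPM in FR2, and for 7 of the 11 the lowest FR1 or FR2 library exceeded the highest of the others at least 4-fold. KLRF1 and KIR2DL4 stood at 3 counts or fewer in every CTRL and hnCD16 library, and NCAM1 and NCR1 also did so in hnCD16, whereas KLRF1 and TYROBP stood at 3 counts or fewer in FR1 and FR2. The summed level of 7 T cell markers was 749.6 to 877.5 CPM in CTRL and hnCD16 and 128 to 169 in FR1 and FR2. Single genes made up most of both sums in FR1 and FR2. These were GZMB (mean 2779 and 2556 CPM) in the NK cell sum and CD28 (92.4 and 119 CPM) in the T cell sum. All 10 HLA genes listed were called higher in FR1 and in FR2 than in both other groups, as were 15.3% of all tested genes. Their summed level was 80.6 to 110.9 CPM in CTRL and hnCD16 and 5757 to 8176 CPM in FR1 and FR2. Of the 10, 1 was also called higher in hnCD16 than in CTRL, where 0.527% of all tested genes were called in either direction. A few NK cell and T cell markers went against the rest of their lists. NCR3, an NK cell receptor, had 101 to 109 counts in CTRL and hnCD16 and 0 to 17 in FR1 and FR2. TYROBP, also on the NK cell list, had 2 to 6 counts against 0, and CD28, a T cell co-stimulator, had 51 to 74 against 1572 to 2258. In CTRL and hnCD16 several defining NK cell markers lay at or near the floor of 3 counts while most T cell markers were higher than in FR1 and FR2. This goes against the label of an NK cell line, but not every marker did. NKG7 still had 177 to 256 counts there against 12711 to 14148 in FR1 and FR2. KLRD1, another NK cell marker, had 202 to 267 counts there and 225 to 282 in FR1 and FR2, which overlap. The construct and the difference in markers between the 2 pairs of groups cannot be told apart, and the part of that difference in the results below was not tested.

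All 10 members passed the filter on low counts. Between the pairs, 4 members rose (MCL1, BAX, BAK1 and BBC3) and 3 fell (BID, BCL2L11 and BCL2A1) in each of the 4 comparisons that set FR1 or FR2 against CTRL or hnCD16, while BCL2, BCL2L1 and PMAIP1 passed in none. Here and below, passing meant a log2 fold change of 1 or more in either direction together with an adjusted p (Benjamini-Hochberg) no higher than 0.05 in edgeR's quasi-likelihood test over 13657 genes. The 7 of 10 members stood beside 38.0% of all tested genes in FR1 versus CTRL, 38.2% in FR2 versus CTRL, 38.3% in FR1 versus hnCD16 and 39.5% in FR2 versus hnCD16. Of all tested genes, 31.7% passed in all 4 comparisons in 1 direction, 15.3% higher and 16.4% lower in FR1 and FR2. The median absolute log2 fold change of the members was 1.79, 1.85, 1.98 and 1.998 in these comparisons, against 0.69, 0.70, 0.70 and 0.73 over all tested genes. The members were chosen with earlier results of these data known, so these shares and medians do not measure an excess over other genes. BID, BCL2L11, BBC3 and BCL2A1 had few counts in 1 pair and reached the test through the other. With at least 10 counts required in every library, 3 of 6 members passed in each of these comparisons. The 4 comparisons share their groups and are not independent of each other. In these bulk libraries, fewer cells of a type and less RNA per cell cannot be told apart.

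**Figure D1:**
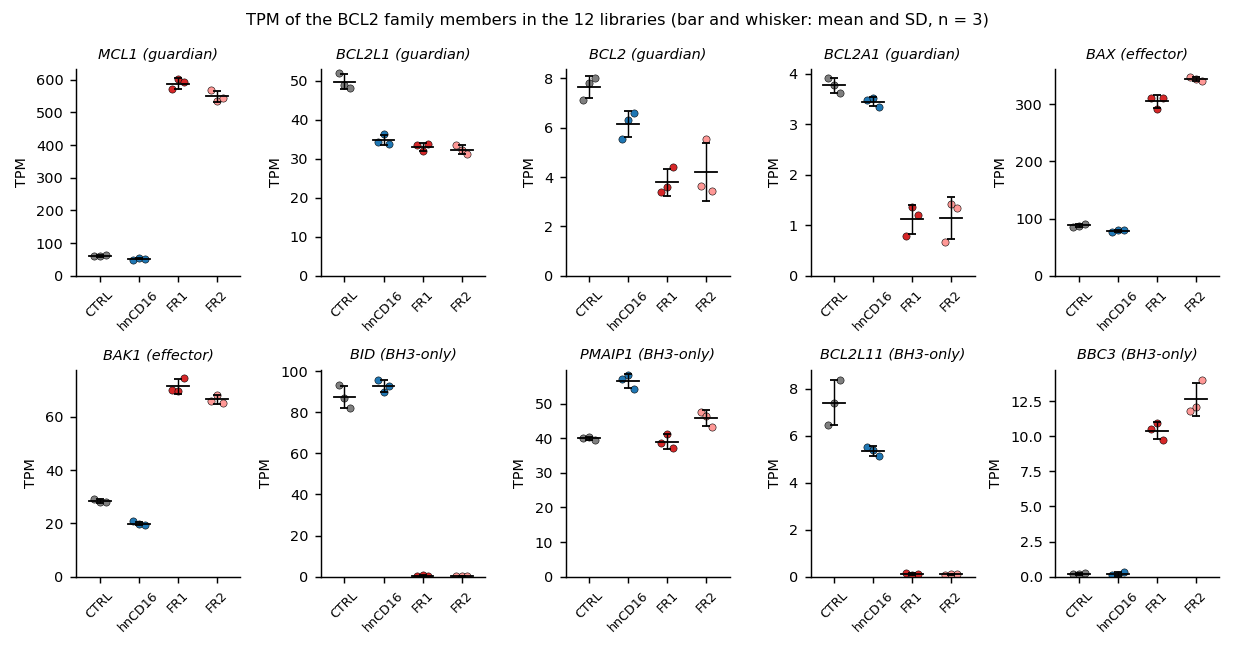
TPM (counts scaled by transcript length and library size) of each member in the 12 libraries, 1 panel per gene with its own axis from 0; points are libraries, and bars and whiskers give the mean and SD of 3. In all FR1 and FR2 libraries MCL1, BAX, BAK1 and BBC3 sit above the other libraries, BID, BCL2L11 and BCL2A1 sit lower, and PMAIP1 is highest in hnCD16 on this scale.

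**Figure D2:**
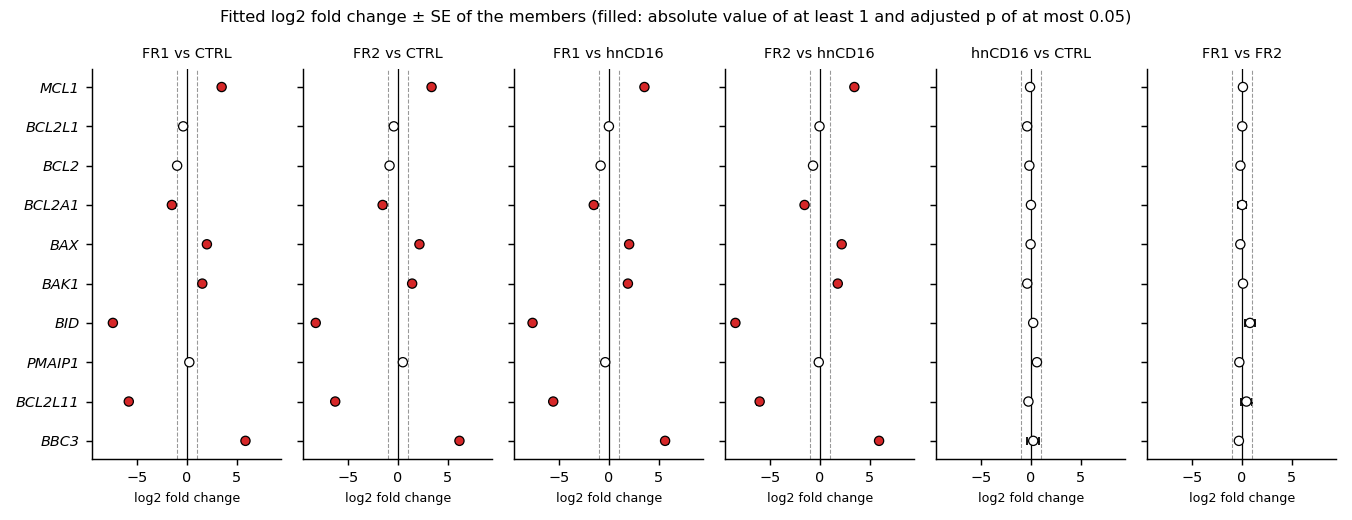
Fitted log2 fold change with its SE for the 10 members in the 6 comparisons, with dashed lines at -1 and 1; filled points passed the threshold. The 7 members named above are filled in the 4 comparisons between the pairs, and no member is filled in hnCD16 versus CTRL or FR1 versus FR2. The SE drawn can understate the error where a group has few counts.

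Among the guardians, MCL1 moved most. Its protein is short-lived and binds BAK1, BIM, PUMA and NOXA. MCL1 stood at 59.2, 59.5 and 62.7 TPM in CTRL, 49.3, 53.2 and 52.4 TPM in hnCD16, 571, 602 and 592 TPM in FR1 and 568, 536 and 544 TPM in FR2. The groups of the 2 pairs were far from overlapping. The log2 fold change was 3.50 ± 0.0477 (SE) in FR1 versus CTRL, 3.39 in FR2 versus CTRL, 3.58 in FR1 versus hnCD16 and 3.47 in FR2 versus hnCD16, a rise of 10.5- to 11.9-fold with edgeR's adjusted p of at most 7.18e-20. MCL1 lies at chr1:150560895-150579738 (GRCh38, GENCODE v44) on the minus strand and overlaps 5 annotated genes, ADAMTSL4 on the opposite strand among them. Whether counting used strand is not given in the sources used here.

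BCL2L1, which encodes BCL-XL, was the second guardian by level in CTRL and did not pass the threshold in any comparison. It stood at 51.8, 48.9 and 48.2 TPM in CTRL, 34.2, 36.3 and 33.8 TPM in hnCD16, 33.6, 31.9 and 33.6 TPM in FR1 and 33.4, 32.2 and 31.3 TPM in FR2. CTRL was thus apart from the other 3 groups, with log2 fold changes of -0.37 for hnCD16, -0.36 for FR1 and -0.40 for FR2 against CTRL and edgeR's adjusted p of 2.64e-04, 5.14e-05 and 1.59e-05. Against hnCD16 the log2 fold changes were 0.01 for FR1 and -0.03 for FR2 (adjusted p = 0.920 and 0.650), and the sign of both depended on the scaling or on the libraries fitted.

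BCL2, the founding guardian, and BCL2A1, a guardian whose gene is a known target of NF-κB in leukocytes, were both low. BCL2 stood at 7.14, 7.81 and 8.02 TPM in CTRL, 5.55, 6.33 and 6.58 TPM in hnCD16, 3.38, 3.59 and 4.40 TPM in FR1 and 3.64, 5.55 and 3.44 TPM in FR2. FR2 replicate 2 equalled the lowest hnCD16 library. The log2 fold change of BCL2 was -0.97 ± 0.0833 in FR1 versus CTRL (edgeR's adjusted p = 5.98e-09), -0.83 in FR2 versus CTRL, -0.83 in FR1 versus hnCD16 and -0.68 in FR2 versus hnCD16, each short of the fold threshold. In FR1 versus CTRL it was past the threshold with total counts in place of TMM (-1.17), with limma on log2(TPM + 0.1) (-1.003), and without CTRL replicate 3 (-1.01), FR1 replicate 2 (-1.001) or FR1 replicate 3 (-1.01). BCL2A1 passed in all 4 comparisons. Its counts were 31, 28 and 26 in CTRL, 28, 27 and 25 in hnCD16, 6, 11 and 9 in FR1 and 5, 11 and 10 in FR2, and its log2 fold change was between -1.54 and -1.50 with an SE of 0.293 to 0.296 and edgeR's adjusted p of at most 1.51e-04. These are few counts, where this SE can understate the error, so the size of the fall was measured loosely.

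The make-up of the guardian RNA followed MCL1. The 4 guardians together stood at 122 ± 1.34 TPM (SD, n = 3) in CTRL, 96.0 ± 3.39 TPM in hnCD16, 626 ± 15.5 TPM in FR1 and 587 ± 16.2 TPM in FR2. In CTRL, MCL1 supplied 49.7% ± 1.36 of that sum, against 53.8% ± 0.640 in hnCD16, and in FR1 and FR2 it supplied 93.9% ± 0.255 and 93.6% ± 0.340. The share of BCL2L1 was 40.9% ± 1.56 in CTRL and 36.2% ± 0.935 in hnCD16, against 5.28% ± 0.265 in FR1 and 5.51% ± 0.104 in FR2. BCL2 and BCL2A1 supplied 6.30% and 3.10% in CTRL and under 1% each in every FR1 and FR2 library. These shares are descriptions of RNA per length and were not tested.

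**Figure D3:**
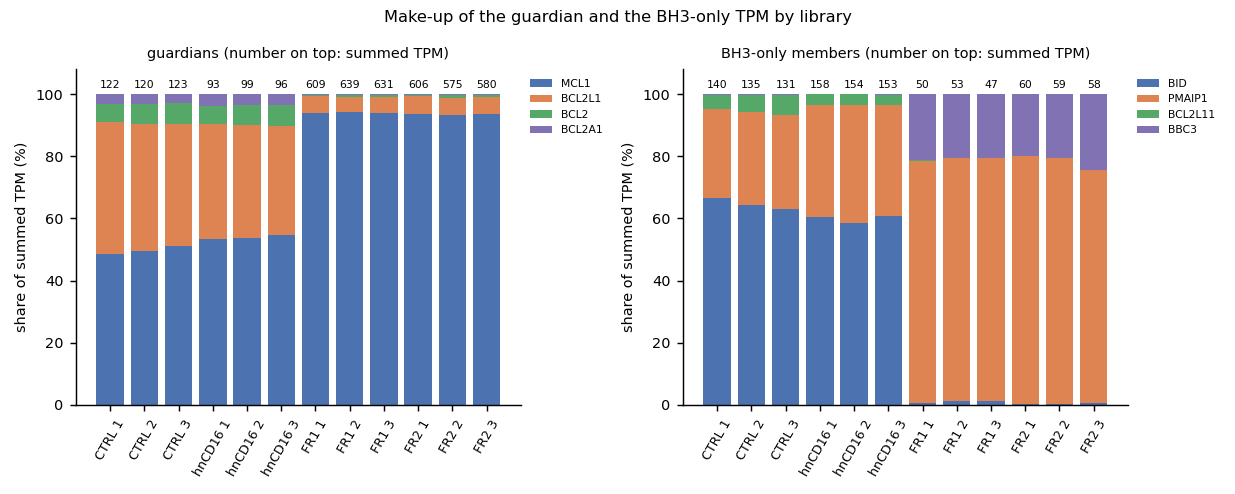
Share of each guardian (left) and of each BH3-only member (right) in their summed TPM, in percent, 1 stacked bar per library; the number on each bar is the summed TPM. MCL1 takes 93.2% to 94.2% of the guardian sum in the FR1 and FR2 libraries against 48.5% to 54.5% in the others, and BID gives way to PMAIP1 and BBC3 among the BH3-only members.

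The effectors BAX and BAK1, which form the pores, both rose. BAX stood at 85.5, 87.1 and 91.2 TPM in CTRL, 76.5, 79.6 and 79.3 TPM in hnCD16, 312, 293 and 311 TPM in FR1 and 348, 344 and 341 TPM in FR2. BAK1 stood at 29.1, 27.95 and 27.9 TPM in CTRL, 20.7, 19.6 and 19.4 TPM in hnCD16, 70.2, 69.5 and 74.7 TPM in FR1 and 66.0, 68.3 and 65.2 TPM in FR2. For both genes every FR1 and FR2 library was above every CTRL and hnCD16 library. The log2 fold change of BAX was 2.02 ± 0.0472 in FR1 versus CTRL, 2.17 in FR2 versus CTRL, 2.04 in FR1 versus hnCD16 and 2.20 in FR2 versus hnCD16, with edgeR's adjusted p of at most 5.13e-17. That of BAK1 was 1.56 ± 0.0601, 1.44, 1.92 and 1.80 in the same order, with edgeR's adjusted p of at most 2.16e-13. Summed over both effectors, the level per unit of guardian RNA was 0.956 ± 0.0169 in CTRL and 1.03 ± 0.0259 in hnCD16, against 0.601 ± 0.0312 in FR1 and 0.700 ± 0.0167 in FR2. The sum of the effectors rose less than that of the guardians, and this ratio of RNA levels was not tested and says nothing of the proteins.

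The BH3-only members moved apart from each other. BID, which is cleaved to its active form by caspase-8 or granzyme B, fell to a few counts. It had 2040, 1848 and 1702 counts in CTRL, 2176, 1984 and 1992 in hnCD16, 5, 13 and 10 in FR1 and 4, 4 and 8 in FR2. The fitted log2 fold change was -7.43 and -7.66 for FR1 versus CTRL and hnCD16, and -8.25 and -8.48 for FR2 versus the same groups. EdgeR's adjusted p was at most 1.12e-17. The SE of these fold changes is left out, as it was smaller than counting error alone. As a ratio of scaled counts, BID was 174-fold lower in FR1 than in CTRL (exact 95% interval 120 to 263) and 366-fold lower in FR2 than in hnCD16 (225 to 641), where the intervals cover counting error only. BID lies at chr22:17734138-17774770 on the minus strand.

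BCL2L11, whose product BIM binds every guardian, fell in the same way. It had 319, 329 and 352 counts in CTRL, 286, 275 and 228 in hnCD16, 7, 3 and 5 in FR1 and 3, 6 and 2 in FR2. The fitted log2 fold change lay between -6.29 (FR2 versus CTRL) and -5.59 (FR1 versus hnCD16), with edgeR's adjusted p of at most 5.78e-14, and the ratio of scaled counts was 58.2 (35.1 to 104) for FR1 below CTRL and 68.3 (37.9 to 137) for FR2 below hnCD16. BCL2L11 at chr2:111119378-111168444 overlaps MIR4435-2HG on the opposite strand, so its reads could include some of that gene if strand was not used.

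BBC3, which encodes PUMA, a known p53 target, went the opposite way. It had 2, 3 and 4 counts in CTRL, 2, 2 and 6 in hnCD16, 170, 177 and 141 in FR1 and 194, 200 and 217 in FR2. The gene was thus close to the floor of 3 counts in every CTRL and hnCD16 library and clearly detected in FR1 and FR2. The ratio of scaled counts was 62.1 (exact 95% interval 32.4 to 137) for FR1 above CTRL and 64.2 (34.7 to 135) for FR2 above hnCD16. In the same order the fitted log2 fold change was 5.89 and 5.95, with edgeR's adjusted p of 2.54e-13 and 1.00e-13. The SE is left out for the reason given for BID.

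PMAIP1, whose product NOXA mainly binds MCL-1 and A1, did not pass the threshold in any comparison. It stood at 40.1, 40.5 and 39.6 TPM in CTRL, 57.1, 58.3 and 54.3 TPM in hnCD16, 38.6, 41.4 and 37.1 TPM in FR1 and 47.6, 46.6 and 43.2 TPM in FR2. The hnCD16 libraries were the highest in TPM, whereas in CPM PMAIP1 was at 58.4 to 64.7 in hnCD16 and 54.6 to 59.9 in FR2, which overlap. The log2 fold change of PMAIP1 was 0.25 (edgeR's adjusted p = 0.00215) in FR1 versus CTRL, 0.51 (1.52e-06) in FR2 versus CTRL, -0.36 (6.67e-05) in FR1 versus hnCD16 and -0.11 (0.131) in FR2 versus hnCD16, all short of the fold threshold, and the first of them turned to -0.04 with limma on TPM. PMAIP1 made up 78.1% ± 0.158 (SD, n = 3) of the BH3-only TPM in FR1 and 77.9% ± 2.65 in FR2, against 29.7% ± 0.871 in CTRL and 36.5% ± 1.26 in hnCD16. The summed BH3-only TPM was 135 ± 4.61 in CTRL and 155 ± 3.10 in hnCD16, against 49.99 ± 2.80 in FR1 and 58.8 ± 1.03 in FR2.

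The order of the members by level therefore differed between the pairs. In CTRL it ran from BAX at 87.9 TPM and BID at 87.4 TPM, which lay within their spread of each other, through MCL1, BCL2L1, PMAIP1 and BAK1 to BCL2 at 7.66 TPM and BCL2L11 at 7.41 TPM, also within their spread, then BCL2A1 at 3.77 TPM and BBC3 at 0.203 TPM. In FR1 it ran from MCL1 at 589 TPM and BAX at 305 TPM through BAK1, PMAIP1, BCL2L1 and BBC3 to BCL2 at 3.79 TPM, BCL2A1 at 1.11 TPM, BID at 0.467 TPM and BCL2L11 at 0.1 TPM.

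Within the pairs no member passed. In hnCD16 versus CTRL, edgeR called 0 of 10 members, beside 0.527% of all tested genes, DESeq2 and limma also called 0, and 5 members had an unadjusted p under 0.05. Of these, 4 had an adjusted p of at most 0.05 without regard to fold, where 43.0% of all genes did. These were PMAIP1 at a log2 fold change of 0.61 (95% interval 0.48 to 0.75), BID at 0.24 (0.08 to 0.40), BAK1 at -0.36 (-0.50 to -0.22) and BCL2L1 at -0.37 (-0.51 to -0.24). For MCL1 the difference was -0.08 (-0.17 to 0.02), for BAX -0.02 (-0.13 to 0.08), for BCL2 -0.15 (-0.31 to 0.01) and for BCL2L11 -0.24 (-0.46 to -0.03). The few counts of BBC3 and BCL2A1 left wide intervals of -1.03 to 1.51 and -0.48 to 0.51.

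FR1 and FR2 differ by the 2B4 domain, and here too edgeR called 0 of 10 members, beside 1.93% of all tested genes, as did DESeq2 and limma, while 4 members had an unadjusted p under 0.05. Without regard to fold, 2 members had an adjusted p of at most 0.05, where 36.2% of all genes did. BAX was lower in FR1, at -0.15 (95% interval -0.25 to -0.06, edgeR's adjusted p = 0.0104), and PMAIP1 was lower in FR1, at -0.25 (-0.39 to -0.11, adjusted p = 0.00601). MCL1 was at 0.11 (0.02 to 0.20), BAK1 at 0.12 (-0.0027 to 0.23), BBC3 at -0.30 (-0.55 to -0.05), BCL2 at -0.14 (-0.33 to 0.05) and BCL2L1 at 0.04 (-0.10 to 0.18), with adjusted p between 0.0564 and 0.683. The other guardian, BCL2A1, was at 0.03 (-0.76 to 0.81), an interval that may be too narrow at so few counts. BID and BCL2L11 had so few counts in both groups that their intervals ran from -0.21 to 1.84 and from -0.69 to 1.61.

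MCL1 is made as a long form that protects from apoptosis and, when exon 2 is skipped, as a short form that lacks the transmembrane part and promotes apoptosis. Exon 2 is shown because it is what separates the 2 transcripts whose levels follow. It lies at chr1:150578244-150578491 on the minus strand (GRCh38, GENCODE v44), is 248 bases long and is coding throughout; capitals mark it between 24 bases of each neighbouring exon.
MCL1 exon 2: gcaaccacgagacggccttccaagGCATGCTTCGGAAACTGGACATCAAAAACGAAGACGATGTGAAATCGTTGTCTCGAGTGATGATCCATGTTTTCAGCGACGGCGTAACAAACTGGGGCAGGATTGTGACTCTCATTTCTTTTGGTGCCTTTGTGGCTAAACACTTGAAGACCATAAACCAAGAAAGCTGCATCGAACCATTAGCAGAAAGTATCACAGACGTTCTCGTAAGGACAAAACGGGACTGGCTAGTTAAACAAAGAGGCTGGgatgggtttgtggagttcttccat

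The long MCL1 transcript, NM_021960, held 98.5% of the gene's TPM in CTRL and in hnCD16, 95.5% in FR1 and 97.6% in FR2. The short one, NM_182763, stood at 0, 1.82 and 0.81 TPM in CTRL, 0.86, 0 and 1.44 TPM in hnCD16, 28.2, 27.1 and 16.9 TPM in FR1 and 12.7, 19.9 and 7.53 TPM in FR2. Every FR1 and FR2 library was above every other, by a margin that varied between replicates. Its share of MCL1 was 1.45% ± 1.54 (SD, n = 3) in CTRL and 1.497% ± 1.39 in hnCD16, against 4.10% ± 1.10 in FR1 and 2.44% ± 1.18 in FR2. In the test of transcript levels NM_021960 rose in all 4 comparisons between the pairs (log2 fold change 3.37 to 3.53), and NM_182763 rose in FR1 versus CTRL (5.01 ± 1.44, edgeR's adjusted p = 0.0335) and in FR1 versus hnCD16 (5.05 ± 1.45, adjusted p = 0.0330). These calls of MCL1 NM_182763 were close to the threshold: they were lost with a replicate block (adjusted p = 0.0762 and 0.0866) and held in 3 and 2 of the 12 fits that left out a library (adjusted p of 0.0134 to 0.115 and 0.0123 to 0.101). The test of transcript use compares a transcript with all transcripts of its gene, itself included. NM_021960, which holds most of the gene, could thus hardly be called. The test called neither MCL1 transcript in any comparison, with adjusted p of 0.812 or more, so a shift between the forms was not detectable with these libraries.

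Of the 36 member transcripts, 19 passed the filter. The level test called 3 of them in FR1 versus CTRL, 2 in FR2 versus CTRL, 4 in FR1 versus hnCD16 and 2 in FR2 versus hnCD16, beside 14.7%, 14.8%, 14.8% and 15.3% of all 56640 transcripts tested, and 0 in hnCD16 versus CTRL and FR1 versus FR2 (0.162% and 0.254%), where limma also called 0 and 2 and 1 had an unadjusted p under 0.05. BCL2L11 NM_138625 fell in all 4, by 3.68 to 4.67 on the log2 scale, from 1.47, 1.97 and 2.55 TPM in CTRL to 0.14, 0.06 and 0.10 TPM in FR1. BCL2L1 NM_138578, 1 of several BCL2L1 transcripts, was called in FR1 versus hnCD16 alone (1.15 ± 0.296, edgeR's adjusted p = 0.0192), while the gene was at 0.01 and NM_001317919 at 0.35 (adjusted p = 0.732). NM_138578 was called no more without hnCD16 replicate 2, hnCD16 replicate 3 or FR1 replicate 1 (adjusted p = 0.0741, 0.0713 and 0.0837), and had 6.49, 4.47 and 3.54 TPM in hnCD16 and 13.02, 9.42 and 8.68 TPM in FR1. The test of use (edgeR's diffSpliceDGE) called 0 of the 19 in each of the 6 comparisons, with 0 to 2 at an unadjusted p under 0.05, where 1.21%, 1.24%, 1.1%, 1.21%, 0.0528% and 0.0453% of 53005 transcripts were called.

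The division of BCL2L1 reads between its 10 transcripts was unsteady between replicates. BCL2L1 NM_001322239 had 254, 0 and 103 expected counts in the 3 CTRL libraries, and the share of NM_001317919, the most abundant on average, was 24.2% ± 1.51 in CTRL and 27.2% ± 16.6 in hnCD16, against 35.7% ± 9.43 in FR1 and 40.2% ± 4.12 in FR2. BCL2L1 NM_138578 took 19.3% ± 5.23, 13.9% ± 4.47, 31.4% ± 6.66 and 27.7% ± 5.26 in the same order, and NM_001191, the short BCL-XS form, 5.01%, 8.14%, 4.93% and 0%. Other BCL2L1 transcripts with a mean of at least 1 TPM in some group (NM_001317920, NM_001317921, NM_001322240, XM_011528964 and XM_017027993) had mean shares of 0% to 15.03%. BCL2L11 NM_138621 had 1.96, 1.12 and 0 TPM in CTRL and 0 TPM in every FR1 and FR2 library. MCL1 NM_001197320 stood at 7.15 TPM in FR1 replicate 2 and 0 TPM in every other library, and was not tested.

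Sequence before the transcription start was examined because members moved together in both directions. RefSeq promoter entries (GRCh38.p14) were found for 9 of the 10 members, all but MCL1, and the 250 bases before each start were searched on both strands for the E-box with letters CACGTG, which read alike on both strands, the GC box with letters GGGCGG, the CCAAT box, which is named by its letters, and the TATA box with letters TATAAA. None of the motifs contains another. At least 1 window of a member held the E-box for 3 of the 9 members (BAX, BBC3 and BID), the GC box for 5, the CCAAT box for 4 and the TATA box for 2, where 6.34%, 42.6%, 32.0% and 10.7% of all 35116 windows held each motif. Members with several starts had several windows, so these counts and shares are not on the same footing. The E-box stood in windows of both risen and fallen genes. The BAX window held it 4 times, of which 2 lie in the stretch shown and 2 past the annotated start of the gene. Of the 35116 windows, 5 (0.0142%) held it at least as often. BAX is singled out as the highest of the 14 member windows, so this share is a description and not a test. The stretches shown are those of 2 members that rose and 2 that fell, with capitals on any match of the 4 motifs. A stretch is cut where the exon at that start begins. Those of BAX and BBC3 lie before the annotated gene, whereas those of BCL2L11 and BID lie inside it, before a start further in. For BID, 1 of 5 windows is shown, and the BID window that reaches before the gene held no E-box. A match is a string of letters and not a site of binding.
BAX, chr19:48954625-48954814, plus strand: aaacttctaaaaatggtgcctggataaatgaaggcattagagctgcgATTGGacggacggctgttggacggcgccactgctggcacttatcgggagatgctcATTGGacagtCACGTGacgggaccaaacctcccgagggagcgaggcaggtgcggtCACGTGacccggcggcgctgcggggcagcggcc
BBC3, chr19:47232767-47232917, minus strand: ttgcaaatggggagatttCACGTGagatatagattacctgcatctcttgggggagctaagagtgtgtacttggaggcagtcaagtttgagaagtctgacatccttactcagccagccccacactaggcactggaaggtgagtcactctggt
BCL2L11, chr2:111120664-111120913, plus strand: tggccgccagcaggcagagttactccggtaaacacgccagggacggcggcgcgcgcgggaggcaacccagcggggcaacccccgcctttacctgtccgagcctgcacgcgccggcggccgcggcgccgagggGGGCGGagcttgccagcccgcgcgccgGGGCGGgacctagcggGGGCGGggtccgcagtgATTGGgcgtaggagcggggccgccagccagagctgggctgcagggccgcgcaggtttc
BID, chr22:17774017-17774233, minus strand: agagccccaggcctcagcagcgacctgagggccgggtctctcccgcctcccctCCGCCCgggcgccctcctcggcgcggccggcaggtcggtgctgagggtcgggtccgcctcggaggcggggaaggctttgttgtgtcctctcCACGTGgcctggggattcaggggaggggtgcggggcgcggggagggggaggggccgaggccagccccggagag

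The rest of the family held further genes that were nearly off in a pair of groups. Of 15 other BCL2 family or BH3-motif genes, 13 were tested, and 6, 6, 4 and 5 of them passed in FR1 versus CTRL, FR2 versus CTRL, FR1 versus hnCD16 and FR2 versus hnCD16, beside 38.0%, 38.2%, 38.3% and 39.5% of all tested genes. The share that passed in all 4 in 1 direction, 30.8%, was near the 31.7% of all tested genes. In these comparisons BMF rose and BIK, BNIP3 and BCL2L2 fell, and in the comparisons within the pairs edgeR, DESeq2 and limma called 0 of 13, with 6 (hnCD16 versus CTRL) and 5 (FR1 versus FR2) at an unadjusted p under 0.05. BMF, a BH3-only gene, had 0, 1 and 1 counts in CTRL, 1 count in each hnCD16 library, 982, 960 and 1030 in FR1 and 1252, 1292 and 1244 in FR2. The ratio of scaled counts of BMF was 1702 for FR1 above CTRL (exact 95% interval 471 to 14060) and 1327 for FR2 above hnCD16 (454 to 6436). BIK, also BH3-only, had 125 to 157 counts in CTRL and hnCD16 and 0 to 3 in FR1 and FR2. BNIP3, a mitophagy receptor, had 189 to 276 counts against 2 to 7, and BCL2L2, which encodes the guardian BCL-W, had 208 to 295 against 18 to 39. With BMF and BBC3 risen and BID, BCL2L11 and BIK fallen, the BH3-only genes that passed moved in both directions.

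The caspase pathway list held genes that act at or after the mitochondrion and initiator caspases of the death receptor route. Of 24 caspase pathway genes, 23 were tested, and 6, 4, 5 and 5 passed in the same 4 comparisons, again beside 38.0%, 38.2%, 38.3% and 39.5% of all tested genes. They had a median absolute log2 fold change of 0.64, 0.64, 0.65 and 0.48 against 0.69, 0.70, 0.70 and 0.73 over all tested genes. The share that passed in all 4 in 1 direction was 17.4%, beside 31.7% of all tested genes, and the 4 genes that did so are named next. CASP9, the initiator caspase of the mitochondrial route, rose from 86 to 124 counts in CTRL and hnCD16 to 197 to 263 in FR1 and FR2 (log2 fold change 1.09 to 1.58). BIRC3, an inhibitor of apoptosis and NF-κB target, rose from 262 to 522 counts to 799 to 1486 (1.16 to 2.22). CASP10, an initiator caspase of the death receptor route, fell by 2.02 to 2.62 on the log2 scale, and ENDOG, a mitochondrial nuclease, fell by 1.11 to 1.22. APAF1 and CYCS, whose products form the apoptosome, did not pass in any of the comparisons. Within the pairs edgeR, DESeq2 and limma called 0 of 23, with 14 at an unadjusted p under 0.05 in each comparison.

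**Figure D4:**
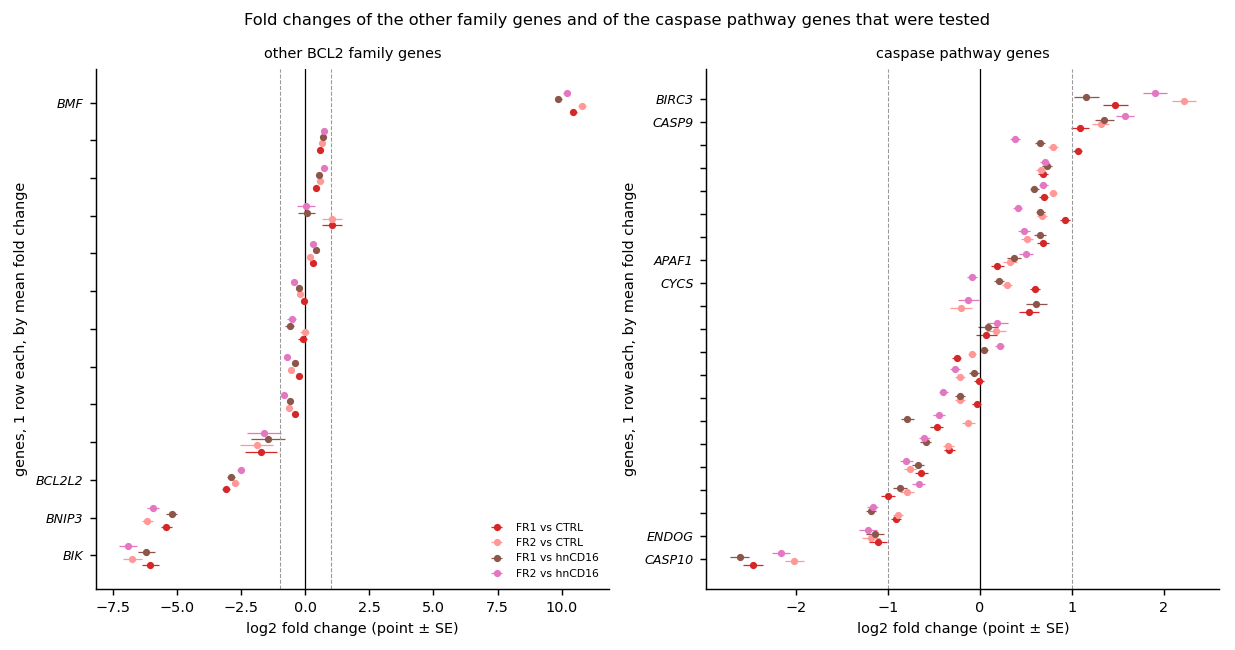
Fitted log2 fold change with its SE for the 13 other family genes (left) and the caspase pathway genes (right, all but 2 of the 23) that were tested, in the 4 comparisons between the pairs; rows are genes, labelled where the text names them, and dashed lines stand at -1 and 1, and the axes of the panels differ. BMF stands far to the right and BIK, BNIP3 and BCL2L2 to the left, while most caspase pathway genes lie between the lines. The SE drawn can understate the error where a group has few counts.

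Other genes shared the pattern of the members with the widest range over the groups. By the root mean square difference of the 4 group means of log2 CPM, each centred on its own mean, BID was most like TSTD1 (0.06), CPNE3 (0.06) and CRISPLD1 (0.14), and BCL2L11 was most like GATA2 (0.06), with SLC22A31 at 0.08. The likeness is over 4 groups only, and TSTD1, CRISPLD1, GATA2 and SLC22A31 had 2 counts or fewer in every FR1 and FR2 library, so their values there are set by the floor.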

How the data were processed

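RNA-seq of 12 YT libraries was analysed. The authors' pipeline was SOAPnuke for trimming, HISAT2 2.1.0 for mapping (GRCh38.p13) and RSEM 1.3.1 for quantification (Bowtie2 2.3.4.3 is also named in the submitters' processing notes). The deposited expected counts carry no normalization, and reads shared by transcripts are divided by RSEM's estimate. The deposited TPM values were made by the authors from the same reads and are scaled by transcript length. The annotation release and strand setting are not given in the sources used here. Another 48 value columns (FPKM and averages) and the authors' own comparisons were not used.

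After rounding of the expected counts, differential expression was tested in R 4.3.3 with edgeR 4.0.16 (quasi-likelihood test, TMM, filterByExpr by group, 1 fit of 4 groups, no covariates), with Benjamini-Hochberg adjustment over all genes or transcripts of each comparison. The test follows the unit, and the study's methods name DESeq2. Transcript use was tested with diffSpliceDGE. Replicates of a group differed by more than sampling noise (chi-square per gene 2.08 to 12.7). The gene step was tested on simulated data for FR1 versus hnCD16 over 13418 genes. It recovered 99.0% of 200 genes changed by a log2 fold of 2, with 1 false call. The test of transcript use recovered 71.5% of 200 transcripts with 17 false calls over 49979 transcripts. Every gene was given a dispersion (spread beyond counting error) of 0.00312 and every transcript 0.05, and features of low mean count were not changed. These rates need not hold for members with few counts or for transcripts that were unsteady between replicates. The floor is 3 counts, 0.160 to 0.169 CPM by total, and intervals on ratios cover counting error only. Intervals on log2 fold changes use the t quantile at the degrees of freedom of edgeR's fit. They rest on an SE taken as the absolute log2 fold change over the square root of edgeR's F statistic. This SE can understate the error where a group has few counts, as in BID, BBC3 and BCL2A1.

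The members and the lists of other family, caspase pathway and marker genes were chosen with earlier results of these data known. The text names every member, the other family and caspase pathway genes that passed in 1 direction in all 4 comparisons between the pairs (at most 6 per list, by mean absolute log2 fold change), transcripts of at least 1 TPM on average in some group, and the 3 genes most like the 2 members of widest range. APAF1, CYCS, GZMB and CD3D were named after their values were seen, and a few genes are not reported here. Coordinates come from GENCODE v44 on GRCh38 and promoter sequence from RefSeq. Alternatives were RLE or total counts as scaling, other filters, DESeq2 1.42.0, limma 3.58.1 on log2 TPM with a pseudocount of 1 or 0.1, adjusted p alone, a fit of just the pair of groups, a replicate block and the omission of single libraries.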

Additional observations from a re-analysis of the deposited data

How the results depend on the processing

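The counts of members that passed (7 in each comparison between the pairs, 0 within them) were the same under DESeq2, RLE, limma on log2(TPM + 1), no filter on low counts and fits of the 2 groups compared. With total counts and with limma on log2(TPM + 0.1) they were 7 or, in FR1 versus CTRL, 8, as BCL2 passed, and leaving out a library gave 7 to 8 and 0. Requiring at least 10 counts in every library left 6 members to test and 3 that passed in each comparison between the pairs, since BID, BCL2L11, BBC3 and BCL2A1 were no longer tested; 1 other family gene then passed in each, and 1, 1, 2 and 1 member transcripts in FR1 versus CTRL, FR2 versus CTRL, FR1 versus hnCD16 and FR2 versus hnCD16. Without the fold threshold, 4 members passed in hnCD16 versus CTRL and 2 in FR1 versus FR2, with 5 and 4 other family genes and 10 and 12 caspase pathway genes. In the 4 comparisons between the pairs, 11, 12, 11 and 12 other family genes and 20, 19, 20 and 20 caspase pathway genes then passed. In hnCD16 versus CTRL, 1 other family gene passed with RLE, and 0 to 1 when a library was left out (1 without CTRL replicate 1). For member transcripts, limma on TPM gave 4 in FR2 versus CTRL, and leaving out a library gave 2 to 3 in FR1 versus hnCD16, the count being 2 without hnCD16 replicate 2, hnCD16 replicate 3 or FR1 replicate 1. The cause of these changes was not tested where the setting itself does not show it.

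Under a replicate block, the counts of members were again 7 and 0, and those of other family genes were 6, 6, 5 and 5 in the order above. Those of member transcripts were 2, 2, 3 and 2, as MCL1 NM_182763 was no longer called. No count moved by over 1.5 times. The numbers only name the libraries: in no comparison did all 3 same-numbered pairs have a correlation of deviations over 0.1 (means -0.0262 to 0.109), though each of 6 libraries correlated best with its own number in hnCD16 versus CTRL and in FR2 versus hnCD16.

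Total counts in place of TMM shifted all genes by -0.11 in hnCD16 versus CTRL, -0.19 in FR1 versus CTRL and -0.13 in FR2 versus CTRL on the log2 scale. The differences that changed sign were all under the threshold. BCL2L1 in FR1 versus hnCD16 (0.01) was -0.00192 with DESeq2, -0.00339 with RLE, -0.00189 with no filter, -0.0720 with total counts, -0.0709 and -0.0727 with limma on log2(TPM + 1) and log2(TPM + 0.1), and -0.0480 to 0.0412 when a library was left out. BCL2L1 in FR2 versus hnCD16 was 0.0134 with the 2 groups alone, and in FR1 versus FR2 it was -0.0221 with total counts and -0.00807 to 0.0673 without a library. BCL2A1 in hnCD16 versus CTRL (0.01) was -0.101 with total counts, -0.0169 with the 2 groups alone, -0.102 and -0.127 with limma, and -0.0698 to 0.0914 without a library. BCL2A1 in FR1 versus FR2 was -0.0370 with total counts, -0.00547 with limma on log2(TPM + 1), and -0.281 to 0.230 without a library. BBC3 in hnCD16 versus CTRL was -0.0205 and -0.137 with limma and -0.452 (without hnCD16 replicate 3) to 0.492 without a library, and PMAIP1 in FR1 versus CTRL was -0.0380 and -0.0389 with limma.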
